A study of Mus musculus with 44 samples.

Results

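Ribosome-bound RNA of peripheral microglial processes (PeMP_TRAP) was compared with ribosome-bound RNA of whole microglia (MG_TRAP) in mouse dorsal cortex and hippocampus. The comparison used the 8 PeMP_TRAP and the 8 MG_TRAP libraries of tamoxifen mice, 16 of the 44 libraries of the series, and all other libraries served as a reference. All mice carried the inducible recombinase CX3CR1-CreERT2 (+/-), which the Cx3cr1 promoter drives in microglia and in other Cx3cr1-expressing macrophages. The second allele was an RPL10a-GFP transgene that the recombinase switches on, given as flox (+/-) in the sample labels and as fl/fl in the series design. Tamoxifen was given at 100 mg/kg on postnatal days 15, 17 and 19, and tissue was taken on postnatal days 28 to 29. The 3 control replicates (A to C) had the same alleles and received vehicle per the sample labels, whereas the series design calls them untreated. MG_TRAP was pulled down through the GFP tag from tissue homogenate, and PeMP_TRAP from synaptosomes, a fraction of synapses broken off from their cells with the processes that adhere to them. The total RNA of the same fractions is called Input and SN_input. Letters D, E and F form the first set and letters G through K the second, whose titles call the process fraction SN_TRAP although its fraction label is the one used for PeMP_TRAP. How titles and files are named separates the sets, and set was a covariate in every comparison across them.

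Microglia are the resident macrophages of the brain. They extend thin motile processes that touch synapses, sense nucleotides released by other cells through P2Y receptors, and take up debris and synaptic material marked by complement. In cells with long processes, some messenger RNAs are carried away from the cell body and translated locally. Translating ribosome affinity purification (TRAP) captures RNA through a tagged ribosomal protein, here RPL10a, and so reads messenger RNA in the act of translation. RNA of organelles, such as the transcripts of the mitochondrial genome, is translated on other ribosomes that do not carry this tag.

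The libraries of both immunoprecipitates held microglial RNA. The 40 transcripts of a list of homeostatic microglial genes made up 4.76% to 10.8% of the counts in MG_TRAP (median 6.83%) and 4.61% to 15% in PeMP_TRAP (median 7.52%), against 0.931% to 2.21% and 0.651% to 2.76% in the same immunoprecipitates of control mice. Cx3cr1, the fractalkine receptor gene, Tmem119, a surface protein gene specific to microglia in the brain, and Csf1r, the receptor gene for the growth factor on which microglia depend, were present in all 16 libraries. The process libraries were less complex. In the second set, the 5 PeMP_TRAP libraries held reads of 5372 to 7369 genes among 20442643 to 35584637 assigned reads, whereas the 3 of the first set held 11694 to 13096 genes among 746616 to 12602839 reads. MG_TRAP libraries detected 12488 to 16515 genes from 3123775 to 27498161 reads. The number of distinct molecules behind the reads, estimated from the genes detected, was 16305 to 31248 in second-set PeMP_TRAP and 183172 to 1043126 in MG_TRAP. The labels do not say whether the libraries of a replicate letter come from separate animals, so p-values measure the spread between these samples, which may be technical. In bulk fractions such as these, fewer cells and less RNA per cell cannot be told apart.

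Abundant transcripts tended to be higher in processes and rare ones lower. Mitochondrially encoded RNAs, ribosomal protein mRNAs and, among microglial genes, those for complement C1q and cystatin C were higher in PeMP_TRAP, while the nucleotide receptor mRNA P2ry12, Gpr34 and the exchange factor mRNA Kalrn were lower. In edgeR's quasi-likelihood test, 498 of 15710 genes were higher in PeMP_TRAP at an adjusted p under 0.05 (3.17%) and 3454 were lower (22%). Fitted on the 16 libraries alone, without the inputs that share in the estimate of spread, 140 were higher and 1223 lower. The median log2 change of all genes tested was -0.57. Of the 565 genes with an average log2 CPM (the share of a library's counts, scaled to a fixed total, where each unit is a doubling) of at least 8, 181 were higher (32%) and 11 lower (1.95%) when p-values were adjusted over these genes.

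**Figure D1:**
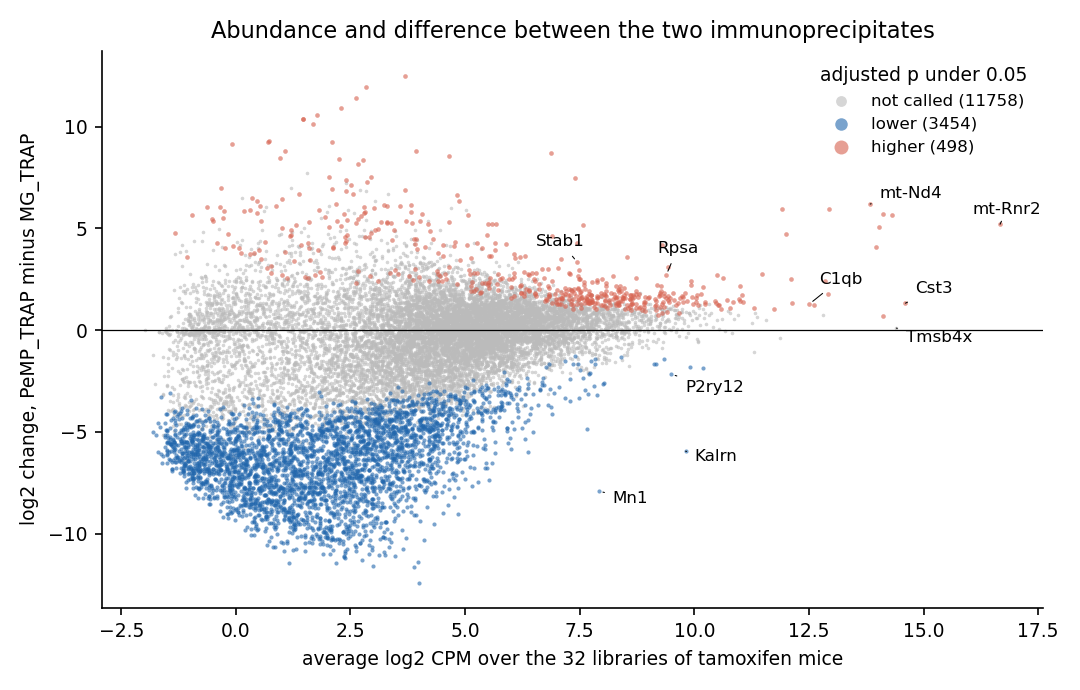
Log2 change between PeMP_TRAP and MG_TRAP (vertical axis) against average log2 CPM over the 32 libraries of tamoxifen mice (horizontal axis), 1 point per gene tested. The 498 genes called higher lie mostly at the abundant end and the 3454 called lower at the rare end, with Kalrn and P2ry12 as abundant exceptions.

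The rare genes called lower were mostly undetected in 1 set of process libraries. Of the 3454 lower genes, 2881 (83.4%) had a count of 0 in all 5 second-set PeMP_TRAP libraries, against 33.5% of all genes tested, and 20 were above 0 in all 8 PeMP_TRAP libraries. Their median average log2 CPM was 1.86, against 7.01 for the genes called higher and 3.97 for all genes. A total of 45.1% of genes between 0 and 2 log2 CPM were called lower and 70.8% of them were at 0 in all 5 second-set PeMP_TRAP libraries, while 6.49% were at 0 in all 5 second-set MG_TRAP libraries. Between 8 and 10 log2 CPM, no gene was at 0 in all 5 of either and 24.5% were called higher. Whether a rare transcript was absent from processes or missed at this complexity cannot be told apart, which holds for many of the lower genes named below.

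**Figure D2:**
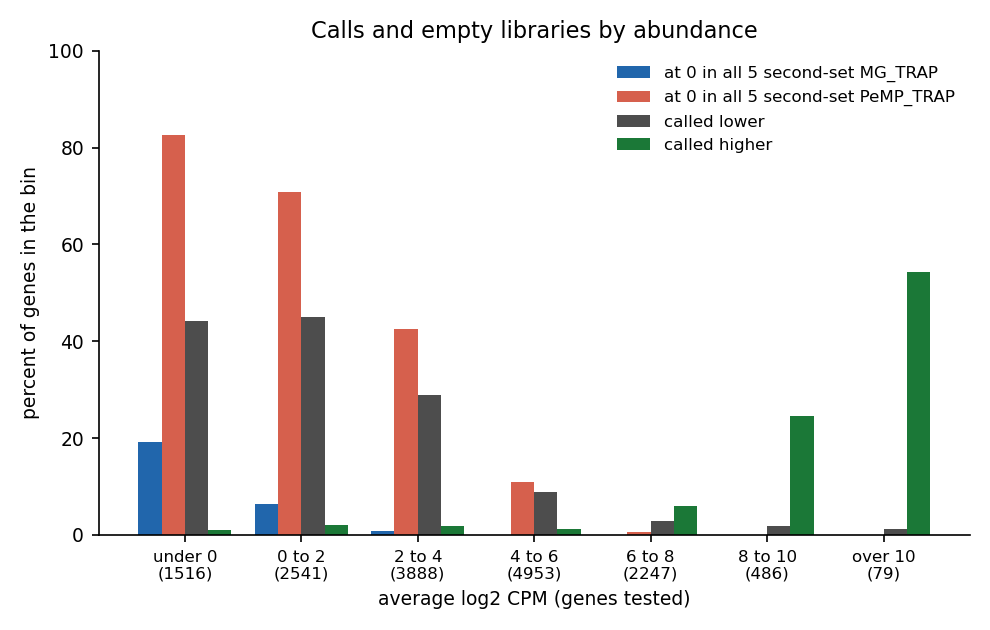
Percent of genes tested (vertical axis) in each range of average log2 CPM (horizontal axis, number of genes in brackets) that were at 0 in all 5 second-set MG_TRAP libraries, at 0 in all 5 second-set PeMP_TRAP libraries, called lower or called higher. The share called lower is highest below 4 log2 CPM, where the share at 0 in PeMP_TRAP is also highest, and the share called higher reaches 54.4% in the 79 most abundant genes.

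Transcripts of the mitochondrial genome had the highest median change of the lists examined. Of the 21 mitochondrially encoded genes tested, 20 were higher in PeMP_TRAP and 0 lower, with a median log2 change of 5.36 (5.66 in the first set alone and 5.51 in the second). The messages for subunits of complex I and complex III of the respiratory chain had the lowest p-values. For mt-Nd4, a complex I subunit, the 8 PeMP_TRAP libraries lay at 11.57 to 16.25 log2 CPM (median 15.07) and the 8 MG_TRAP libraries at 5.56 to 9.97 (median 9.04). The groups did not overlap, and the fitted log2 change was 6.20 (SE 0.56, adjusted p = 4.01e-10). mt-Cytb, the cytochrome b of complex III, lay at 12.26 to 16.46 in PeMP_TRAP and 4.79 to 11.01 in MG_TRAP, a change of 5.68 (SE 0.50). The ribosomal RNAs mt-Rnr1 and mt-Rnr2 were higher by 5.72 (SE 0.74) and 5.21 (SE 0.69). All mitochondrially encoded RNA together took 1.06% to 31.4% of the counts in PeMP_TRAP (median 17.7%) and 0.0712% to 1.66% in MG_TRAP. The same RNAs were also higher in SN_input than in Input (median log2 difference 3.63), and in control mice they took 6.16% to 31.6% of PeMP_TRAP and 0.379% to 1.69% of MG_TRAP. Against its own input, the list had a median of -1.84 in MG_TRAP and 0.05 in PeMP_TRAP.

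The protein synthesis machinery formed the second group. Of 80 cytosolic ribosomal protein mRNAs tested, 45 were higher and 0 lower, where 3.17% of all genes were higher, with a median log2 change of 1.38 (1.07 in the first set alone, 1.41 in the second). Together they took 0.703% to 9.02% of the counts in PeMP_TRAP (median 6.89%) and 0.455% to 4.78% in MG_TRAP (median 3.47%). The same mRNAs were also higher in SN_input than in Input, by a median log2 difference of 1.35, so total RNA of the fractions differed by a similar amount. Rpsa, the laminin receptor-like protein of the small subunit, lay at 4.39 to 11.59 log2 CPM in PeMP_TRAP (median 10.82) and 0.51 to 9.21 in MG_TRAP (median 8.76). First-set libraries were low in both, so the groups overlap. PeMP_TRAP was the higher one in 8 of 8 letters, given as a description since letters are not stated to pair libraries, with a change of 2.71 (SE 0.50, adjusted p = 0.000272). Rpl18, of the large subunit, was higher by 2.06 (SE 0.39), from 7.78 to 9.74 at the medians. Of 35 translation factors, 15 were higher and 0 lower, against the same share of all genes, with a median of 1.00. Eef2, which moves the ribosome along the message, lay at 9.55 to 11.95 in PeMP_TRAP and 8.44 to 10.00 in MG_TRAP, higher in 8 of 8 letters by 1.79 (SE 0.30). Rack1, a scaffold protein of the small subunit, was higher by 2.18 (SE 0.37). Rpl10a itself, counted together with the transgene where reads match both, differed by -0.28 (SE 0.82, adjusted p = 0.864), with -2.69 in the first set alone and 1.60 in the second.

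Messages of the translation machinery often start with a pyrimidine tract, the 5′ terminal oligopyrimidine (TOP) tract, through which growth signals control their translation. The sequences around the RefSeq transcription start (GRCm38.p6, 10 bases before and 20 from the start, gene strand) are shown for 3 of these genes and, for contrast, for 3 other genes higher in processes, with the longest run of C and T in capitals.
Rpl18, chr7:45718061-45718090 (+): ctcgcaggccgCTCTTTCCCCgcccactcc
Rack1, chr11:48800350-48800379 (+): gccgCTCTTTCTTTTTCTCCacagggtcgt
Rpsa, chr9:120127756-120127785 (+): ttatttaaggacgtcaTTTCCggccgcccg
Cox8a, chr19:7217597-7217626 (-): aaataCTTCCggctcgggcgtccggcaact
Cst3, chr2:148875493-148875522 (-): gggtggCCgccggaaaaggaggagccagga
C1qb, chr4:136886181-136886210 (-): agagagggtcagcctgttgggCCTTgggag
Rpl18 and Rack1 have runs of 10 and 16 pyrimidines at the start, and the other 4 genes have none longer than 5. In 50-base windows (20 before and 30 from the start), a run of at least 8 pyrimidines on the gene strand was present in 35 of 75 windows of ribosomal protein genes (46.7%), 12 of 34 of translation factors (35.3%) and 8 of 63 of nuclear-encoded respiratory chain genes (12.7%), against 19% of all 32851 windows. On the other strand the shares were 8%, 23.5%, 9.52% and 21.9%. Within the ribosomal proteins, the share was 46.2% for genes called higher and 47.2% for those not called. The table matched 63 of the 83 ribosomal protein genes, and a run of these letters is a description, not a site.

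Of 70 nuclear-encoded genes of the respiratory chain, 25 were higher, 0 lower and 45 not called, where 3.17% of all genes were higher (median log2 change 1.03; 0.55 in the first set alone and 1.21 in the second). Cox4i1, a subunit of complex IV, lay at 10.02 to 11.47 log2 CPM in PeMP_TRAP (median 11.01) and 8.90 to 9.87 in MG_TRAP (median 9.41), without overlap, a change of 1.51 (SE 0.25, adjusted p = 9.6e-05). Cox8a, another subunit of complex IV, was higher by 2.75 (SE 0.41) and in 7 of 8 letters. Against its own input, the list had a median of -0.27 in MG_TRAP and -0.65 in PeMP_TRAP, and in SN_input its median was 1.39 above that in Input. The proteasome list had 5 of 32 members higher and 0 lower, among them Psmb4, a subunit of the core particle, at 1.75 (SE 0.51). Of 35 genes for entry into and folding in the endoplasmic reticulum, 4 were higher and 1 lower, with Hsp90b1, a folding chaperone, at 1.81 (SE 0.34) and in 8 of 8 letters. Glycolysis had 2 higher and 2 lower of 21. The calls and directions of the abundant lists depend on how counts are processed. On the 16 libraries alone, 31 ribosomal proteins, 10 respiratory chain genes and 7 translation factors were higher. Scaled by total counts, 15 ribosomal proteins, 4 respiratory chain genes and 7 translation factors were called higher, with 0, 0 and 2 lower. With voom 29, 27 and 6 were higher and 1, 4 and 5 lower. Scaled by estimated molecules 2, 2 and 2 were higher and 1, 3 and 7 lower. The counts scaled to estimated molecules were rounded, filtered again and then scaled by TMM as in the main fit. With them the medians of the 3 lists lay 1.39, 0.95 and 0.82 above the median of all genes. In the main fit they lay 1.95, 1.60 and 1.57 above it. All 15 mitochondrially encoded genes that could still be fitted to the counts scaled to estimated molecules were higher. Among genes with an average log2 CPM of at least 8, of which 32% were higher, 37 of 47 ribosomal proteins, 27 of 49 respiratory chain genes and 8 of 9 translation factors were higher. There the median of all genes was 0.74, and the lists lay 0.65, 0.30 and 0.50 above it.

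**Figure D3:**
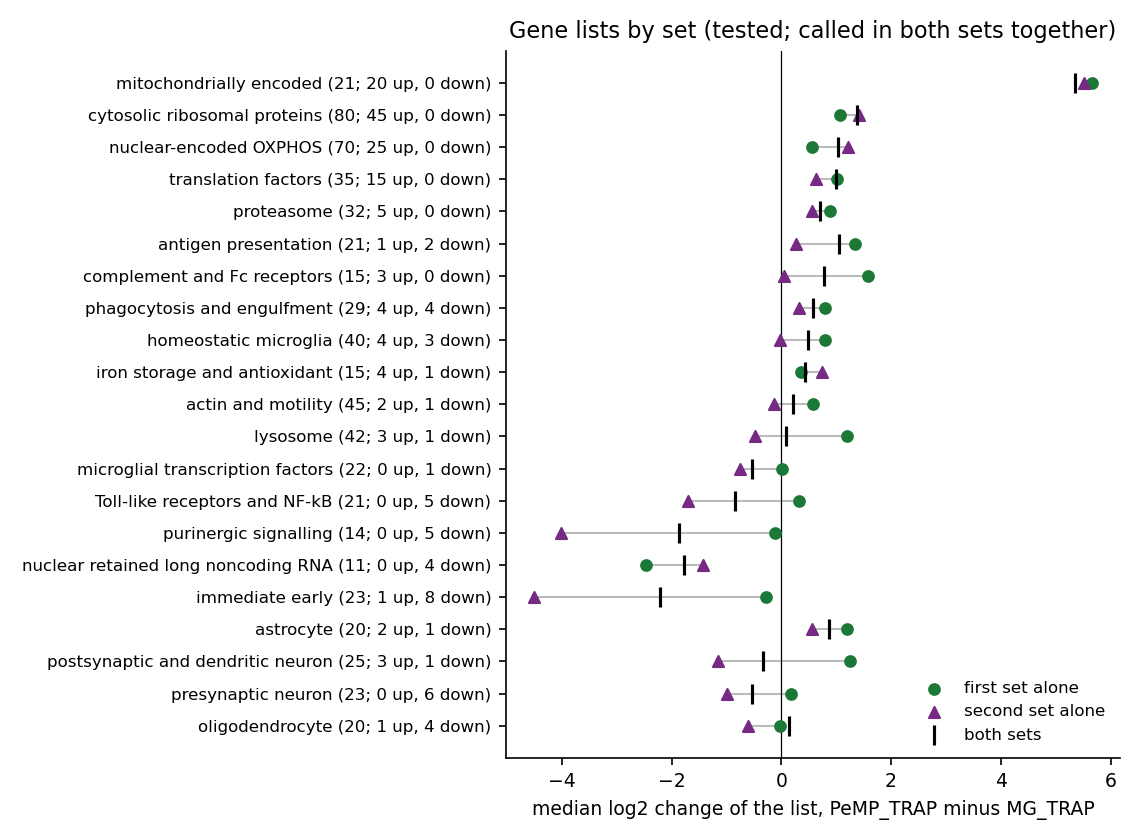
Median log2 change between PeMP_TRAP and MG_TRAP (horizontal axis) of 21 gene lists in the first set alone (circles), the second set alone (triangles) and both sets together (bars), with the number of genes tested and called beside each name. The mitochondrial, ribosomal, respiratory chain and translation factor lists lie above 0 in both sets, whereas the purinergic and immediate early lists lie at -0.11 and -0.28 in the first set and at -4.02 and -4.51 in the second.

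Of 40 homeostatic microglial genes, 4 were higher, 3 lower and 33 not called (median 0.49), where 3.17% of all genes were higher and 22% lower. Scaled by total counts 0 were higher and 5 lower (median -0.34), and scaled by estimated molecules 0 were higher and 15 lower of 39 (median -0.81). Cx3cr1 lay at 7.07 to 10.91 log2 CPM in PeMP_TRAP and 7.93 to 10.86 in MG_TRAP, a change of 0.10 (SE 0.43, adjusted p = 0.913) with PeMP_TRAP higher in 5 of 8 letters. Tmem119 differed by 0.36 (SE 0.49), but was lower in the second set alone at -0.89 (adjusted p = 0.0412) and when scaled by estimated molecules at -1.03 (adjusted p = 0.0458), and Csf1r by 0.83 (SE 0.34, adjusted p = 0.0706). For Trem2, a lipid-sensing receptor, and its signalling partner Tyrobp the changes were 1.04 (SE 0.43) and 0.67 (SE 0.35), for the actin-bundling Aif1 0.54 (SE 0.35), for the protease Ctss 0.50 (SE 0.30), for the integrin Itgam 1.19 (SE 0.58) and for Cd68, a lysosomal membrane protein, -0.01 (SE 0.63), none of which passed. These genes had much higher levels in SN_input than in Input, by 3.75 for Cx3cr1, 3.34 for Tmem119, 3.36 for Csf1r and 4.53 for Itgam.

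Among the microglial transcripts that were higher in processes were those of complement C1q, Cst3, Sparc and Laptm5. The 3 chains of C1q, which tags synapses and debris for uptake, were the only higher members among 15 complement and Fc receptor genes, with 0 lower, where 3.17% of all genes were higher and 22% lower. On the 16 libraries alone 2 of the list were higher and with RLE factors 1. With total counts and with DESeq2 0 of the list were higher, and scaled by estimated molecules 0 were higher and 3 lower of 13. C1qa lay at 11.18 to 14.29 log2 CPM in PeMP_TRAP (median 11.99) and 10.28 to 11.48 in MG_TRAP (median 10.89). It was higher in 8 of 8 letters, by 1.42 (SE 0.32, adjusted p = 0.00145), and the highest library, of letter D, stood apart. Without letter D the changes of C1qa, C1qb and C1qc were 0.97, 0.76 and 0.53 in place of 1.42, 1.29 and 1.05, and C1qc no longer passed (adjusted p = 0.0535). C1qc also lost its call without letter E (adjusted p = 0.0624), H (0.0556) or I (0.0533). Cst3, the secreted protease inhibitor cystatin C, lay at 14.70 to 17.63 in PeMP_TRAP and 13.63 to 15.72 in MG_TRAP, higher by 1.33 (SE 0.28). Sparc, a secreted matrix-binding protein, was higher by 1.22 (SE 0.26) and Laptm5, a lysosomal membrane protein, by 1.11 (SE 0.36). Apoe, the main lipid carrier of the brain, lay at 12.67 to 15.28 in PeMP_TRAP and 10.69 to 12.56 in MG_TRAP, without overlap, higher by 1.80 (SE 0.33, adjusted p = 0.000239). Apoe, which astrocytes also make, was not enriched from the process fraction, at -0.19 in PeMP_TRAP against SN_input and 1.47 in MG_TRAP against Input, whereas Cst3 was at 2.63 and 4.56. Scaled by total counts the changes were 0.56 for C1qa, 0.42 for C1qb, 0.13 for C1qc, 0.51 for Cst3, 0.39 for Sparc and 0.22 for Laptm5, none past the threshold, and 0.95 for Apoe, which passed. Scaled by estimated molecules the changes were 0.09 for C1qa, -0.10 for C1qb and -0.32 for C1qc. They were -0.01 for Cst3, -0.13 for Sparc, -0.27 for Laptm5 and 0.42 for Apoe. None of the changes scaled this way passed the threshold. The median of all genes fitted was -0.57 in the main fit and -1.13 with estimated molecules, where counts were filtered again. The median shift of genes from the main fit was -1.05.

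**Figure D4:**
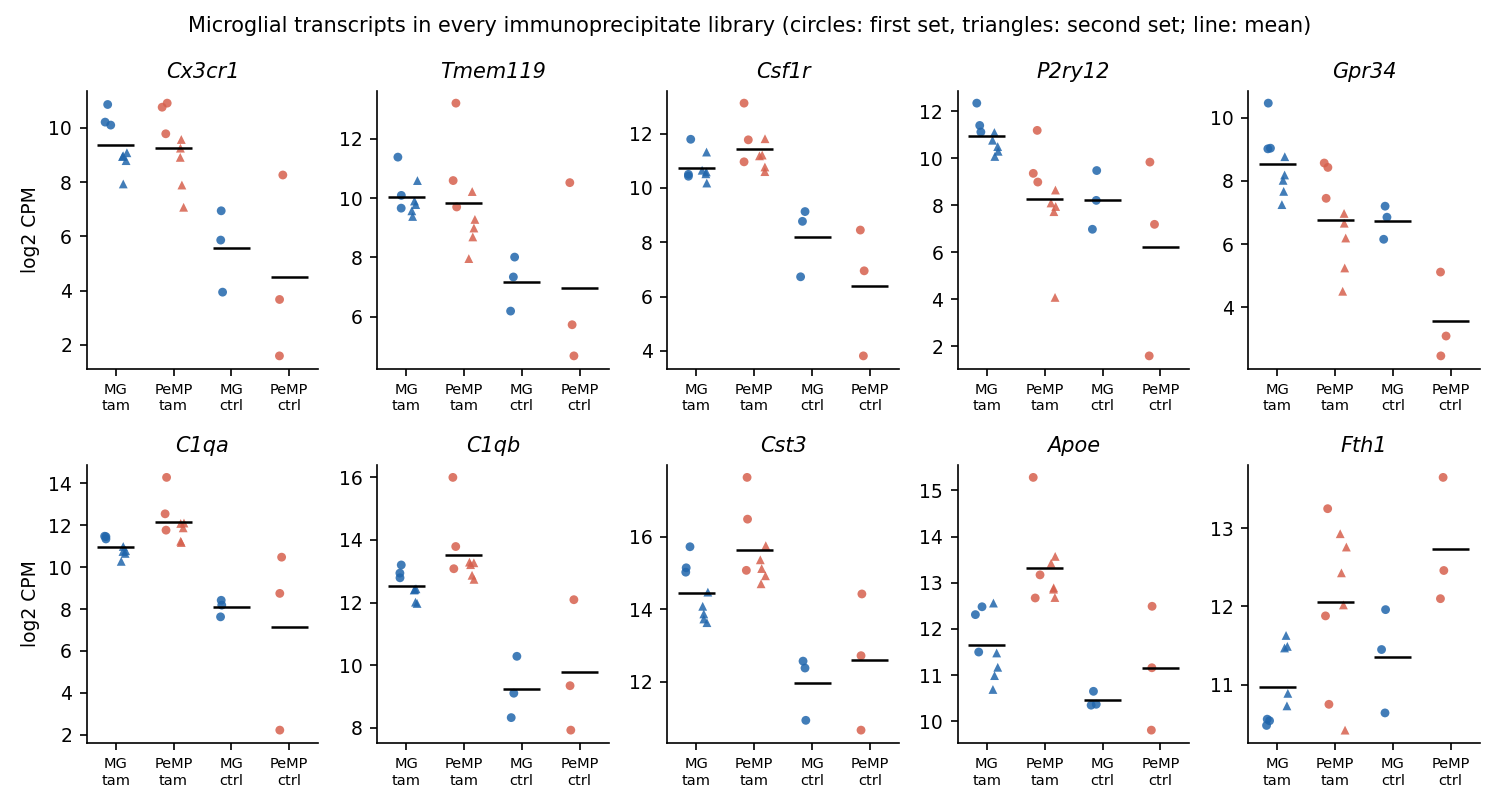
Log2 CPM (vertical axes) of 10 transcripts in every MG_TRAP (blue) and PeMP_TRAP (red) library of tamoxifen and control mice, with circles for the first set, triangles for the second and a line at each group mean. Apoe does not overlap between the tamoxifen groups, P2ry12 and Gpr34 are lower in PeMP_TRAP in every letter, and the Cx3cr1 groups overlap over most of their range.

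Among 29 genes of phagocytosis and engulfment, 4 were higher and 4 lower, where 3.17% of all genes were higher and 22% lower, shares that also stand beside the lysosome and iron counts below. The higher ones were Apoe, the scavenger receptor Stab1, the lipoprotein receptor Lrp1 (named after its values were seen) and the integrin Itgb5. Stab1 lay at 8.11 to 10.69 log2 CPM in PeMP_TRAP (median 8.72) and 5.09 to 6.61 in MG_TRAP (median 6.04), without overlap, a change of 3.35 (SE 0.66, adjusted p = 0.000424). Lrp1 did not overlap either and was higher by 1.75 (SE 0.34). The 4 lower genes, Lgals3, Megf10, Cd300lf and Gulp1, were at 0 in all 5 second-set PeMP_TRAP libraries. For the lysosome 3 of 42 were higher, Grn, Laptm5 and Hexa (the last named after its values were seen), and 1, the channel gene Mcoln1, was lower and at 0 in all 5 second-set PeMP_TRAP libraries. Grn, the precursor of the granulins, was higher by 1.33 (SE 0.40), in 7 of 8 letters. The iron storage and antioxidant list had Fth1, Gpx4, Prdx5 and Sod1 higher and the iron exporter gene Slc40a1 lower, of 15. Fth1, the heavy chain of ferritin, was higher by 1.35 (SE 0.28), while its light chain Ftl1 differed by 0.53 (SE 0.62) and did not pass. In the first set Ftl1 had only 0 to 1 counts in PeMP_TRAP and 1 to 56 in MG_TRAP. In the second set Ftl1 lay at 9.10 to 10.41 log2 CPM in PeMP_TRAP and 8.15 to 8.53 in MG_TRAP. Cyba, a subunit of the phagocyte oxidase, was higher by 1.49 (SE 0.41).

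P2ry12 and Gpr34, receptors typical of microglia, were lower in processes. Of 14 purinergic genes, 5 were lower and 0 higher, where 22% of all genes were lower, and 4 of the 5 were at 0 in all second-set PeMP_TRAP libraries. The exception was P2ry12, the ADP receptor that directs microglial processes towards injury, which was above 0 in all 8 PeMP_TRAP libraries. It lay at 4.08 to 11.19 log2 CPM in PeMP_TRAP (median 8.37) and 10.08 to 12.35 in MG_TRAP (median 10.93). PeMP_TRAP was lower in 8 of 8 letters, and the first-set library of letter D made the groups overlap. The log2 change was -2.16 (SE 0.46, adjusted p = 0.000862), with -1.51 in the first set alone and -2.94 in the second. Gpr34, a lysophosphatidylserine receptor of the same receptor family, changed by -1.68 (SE 0.52, adjusted p = 0.0138) and was lower in 8 of 8 letters. Scaled by total counts P2ry12 and Gpr34 changed by -3.04 and -2.44, and scaled by estimated molecules by -3.32 and -2.60, all past the threshold. Both genes lie inside or beside genes on the opposite strand, Med12l for P2ry12 and Cask for Gpr34, which were at -3.39 and -2.50, and the counting of strand is not given in the sources used here. Many other genes described here overlap a gene on the opposite strand, among them Rpl18, Rack1, Cox4i1, Csf1r, Cx3cr1, Grn, Hexa, Cyba, Lrp1, Stab1, B2m, Hsp90b1, Slc1a2 and R3hdm4, and their values carry the same uncertainty. P2ry12 was itself higher in SN_input than in Input, by 2.42.

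Toll-like receptor and NF-kB genes had 5 of 21 lower and 0 higher, a share near the 22% of all genes, Tlr4, Tlr1, Tlr6, Tnfaip3 and Tlr2, all 5 at 0 in the second-set PeMP_TRAP libraries. Tlr4, the endotoxin receptor, had no count above 0 in the 8 PeMP_TRAP libraries of tamoxifen mice and 0 to 554 counts in MG_TRAP, the highest in letter D. The interferon list had 1 higher, Bst2, and 5 lower of 24, 4 of them at 0 in those libraries. In antigen presentation H2-K1, a class I heavy chain, was higher by 1.94 (SE 0.58), H2-Aa, a class II chain, and Ciita, the class II transactivator, were lower and at 0 in all 8 PeMP_TRAP libraries, and B2m, the class I light chain, differed by -0.02 (SE 0.33). With DESeq2, voom, RLE factors, total counts or estimated molecules 0 genes of this list were higher, while 1 was on the 16 libraries alone. Ciita had counts in only 1 MG_TRAP library, of letter G (27 counts), and its change was 0.05 with voom. Chemokines and cytokines had 0 higher and 1 lower of 20, microglial transcription factors 0 and 1 of 22 (Klf2, at 0 in all 5 second-set PeMP_TRAP libraries), and TGF-beta signalling 0 and 2 of 16. Actin genes had 2 higher and 1 lower of 45. Of all genes 3.17% were higher and 22% lower, shares that also stand beside the other counts of this paragraph. Actb was higher by 0.68 (SE 0.17, adjusted p = 0.0037) in 8 of 8 letters, but by -0.01 when scaled by total counts and -0.53 by estimated molecules. Ezr, which links actin to the membrane, was higher by 2.51 (SE 0.71), and Wasl, an activator of actin branching, changed by -5.00 (SE 1.08). Tmsb4x, which binds actin monomers, differed by 0.10 (SE 0.36), but was lower when scaled by estimated molecules, at -1.14 (adjusted p = 0.0372).

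Kalrn was lower in processes. The same direction in every letter was a condition for naming the largest changes in this paragraph. Kalrn encodes a nucleotide exchange factor for small GTPases known from dendritic spines. It lay at 3.67 to 7.19 log2 CPM in PeMP_TRAP (median 5.41) and 10.14 to 13.20 in MG_TRAP (median 11.43), far apart in all 8 letters, with a change of -5.95 (SE 0.54, adjusted p = 4.54e-10). The transcript was also high in MG_TRAP of control mice (12.50 to 13.65), which do not have the induced tag, and control PeMP_TRAP lay at 6.72 to 9.17. The other large decreases, Mn1, Cand1, Magee1, Sphkap, Pdxk, Dclk2 and Ypel2, were at -7.91 to -5.54, and each was above 0 in 4 or 5 of the 8 PeMP_TRAP libraries. The largest increases were taken from genes with the same direction in every letter and both sets. These genes also had an average log2 CPM of at least 4, no predicted symbol and no mitochondrial origin. Beside Rpsa and Stab1, the largest were Pgam2 at 4.28 (SE 1.25), Hmgn5 at 3.95 (SE 0.97) and Igkc at 3.59 (SE 1.06). Next were Taf10 at 2.74 (SE 0.74), R3hdm4 at 2.74 (SE 0.34) and Anp32b at 2.54 (SE 0.53). For Pgam2, letters D and E each rest on 1 count in PeMP_TRAP against 0 in MG_TRAP. R3hdm4 lay at 7.50 to 11.39 in PeMP_TRAP and 6.32 to 8.14 in MG_TRAP, and it was higher in SN_input than in Input by 3.55. Igkc, the immunoglobulin kappa constant region, is a product of plasma cells. It had 0 to 1 counts in control immunoprecipitates and 2 to 3 in MG_TRAP of letters D and E. In the other MG_TRAP libraries of tamoxifen mice it had 487 to 5132. In PeMP_TRAP it had 3 counts in letter E, 591 in D and 2193 to 51010 in the others. Of 17 B and plasma cell genes, 5 were higher and 1 lower, where 3.17% of all genes were higher and 22% lower. Against its own input, the list had a median of 6.09 in MG_TRAP and 7.32 in PeMP_TRAP. That list took 0.0148% to 0.591% of the counts in PeMP_TRAP, 0.0726% to 0.27% in MG_TRAP and 0.00584% to 0.062% in control PeMP_TRAP, with 3 members at 0 in every PeMP_TRAP library, and its part in other results was not tested.

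Of 11 nuclear retained long noncoding RNAs, 4 were lower and 0 higher, where 22% of all genes were lower, and 3 of the 4 were at 0 in all second-set PeMP_TRAP libraries. The median was -1.78, with -2.47 in the first set alone and -1.43 in the second, where the median of all genes was -1.57. They took 0.00579% to 0.331% of the counts in PeMP_TRAP (median 0.0133%) and 0.0341% to 0.74% in MG_TRAP (median 0.066%), and were also lower in SN_input than in Input, by a median of -2.25. In control mice the median between the immunoprecipitates was 2.43, with 0.0642% to 3.03% of counts in PeMP_TRAP. Of 23 immediate early genes, which respond first to new signals, 8 were lower, 14 were not called and 1, Jund, was higher by 1.68 (SE 0.57). On the 16 libraries alone 0 of the list were higher and 4 lower, and scaled by total counts 0 and 11. Scaled by estimated molecules 0 were higher and 13 lower of 17, while DESeq2 called 1 higher and 13 lower. Fosl2, a subunit of the AP-1 factor, had no count in the 8 PeMP_TRAP libraries of tamoxifen mice and lay at 0.10 to 5.16 log2 CPM in MG_TRAP. Of the 8 lower genes, 7 were at 0 in all second-set PeMP_TRAP libraries. In the list of chromatin modifiers, 1 of 38 was higher, Chd4 at 1.91 (SE 0.39), and 4 were lower.

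Markers of other cells were present in both immunoprecipitates. The counts of lower genes that follow stand beside 22% of all genes called lower and 3.17% called higher. Presynaptic neuronal genes had 0 higher and 6 lower of 23 and took 0.0663% to 0.295% of PeMP_TRAP counts against 0.171% to 0.949% in MG_TRAP. On the 16 libraries alone 2 of them were lower, with voom 14 and scaled by estimated molecules 13. Postsynaptic genes had 3 higher and 1 lower of 25, with Ppp1r9b, a spine scaffold, at 1.93 (SE 0.33), and took 0.115% to 0.905% of PeMP_TRAP and 0.197% to 1.04% of MG_TRAP. Astrocyte genes had 2 higher and 1 lower of 20 and took 0.0929% to 0.491% of PeMP_TRAP and 0.0866% to 0.353% of MG_TRAP. Slc1a2, the astrocyte glutamate transporter, was higher by 2.19 (SE 0.42). Oligodendrocyte genes had 1 higher and 4 lower of 20 and took 0.0788% to 0.623% of PeMP_TRAP and 0.0502% to 1.55% of MG_TRAP, against 0.438% to 0.979% of Input. Vascular genes had 1 higher and 5 lower of 20, border macrophage genes 0 and 5 of 11, and choroid plexus genes 2 and 4 of 9. Of these 2, Ttr, the thyroxine carrier, was higher by 3.13 (SE 0.60), and Folr1 was above 0 in only 1 PeMP_TRAP library. Monocyte and neutrophil genes had 0 higher and 2 lower of 6, T and NK cell genes 0 and 2 of 3, and red blood cell genes 0 and 0 of 6. The lower monocyte, T cell, vascular and choroid plexus genes were all at 0 in the 5 second-set PeMP_TRAP libraries, as were 4 of the 5 lower border macrophage genes. In control mice, where the tag was not induced, the astrocyte list took 0.712% to 0.964% of PeMP_TRAP, and the part of such RNA in the higher and lower calls was not tested.

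Both sets gave the same direction for most abundant genes called higher, but only the second set passed the test alone. Fitted on the first set (3 against 3), 0 of 12968 genes passed an adjusted p of 0.05 in edgeR (0%, lowest adjusted p 0.1), and 599 higher and 778 lower genes passed an unadjusted p of 0.05. Fitted on the second set (5 against 5), 691 of 15617 genes were higher (4.42%) and 5962 lower (38.2%). The sets share no library. Of the 516 second-set higher genes that were also fitted in the first set, 445 (86.2%) had a positive change there, and of the 3998 lower genes 2455 (61.4%) had a negative one, where 50.8% of all genes fitted in both sets were positive in the first. Among those with an average log2 CPM of at least 8, 190 of 205 higher genes had the same sign in the first set and 23 of 75 lower genes did. The 50.8% covers all abundances, and the positive share of all abundant genes in the first set was not computed. Abundant genes had a median change of 0.74 in the fit on both sets. Genes with an unadjusted p under 0.05 in the first set and the same direction made up 12.2% of the second-set higher genes and 9.48% of the lower ones, which were 10.8% and 52.1% of the first-set genes. Directly tested, the difference depended on set for 2743 of 17961 genes (15.3%), 2667 of them lower and 76 higher in the second set relative to the first. Of the genes described above, Slc1a2 differed between sets, at 3.82 in the first and 1.24 in the second (adjusted p = 0.0228), and so did Mn1, Rpl10a, Ftl1, Mcoln1, Magee1 and Sphkap, whereas P2ry12, Kalrn, C1qa, Apoe and mt-Nd4 did not pass this test.

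**Figure D5:**
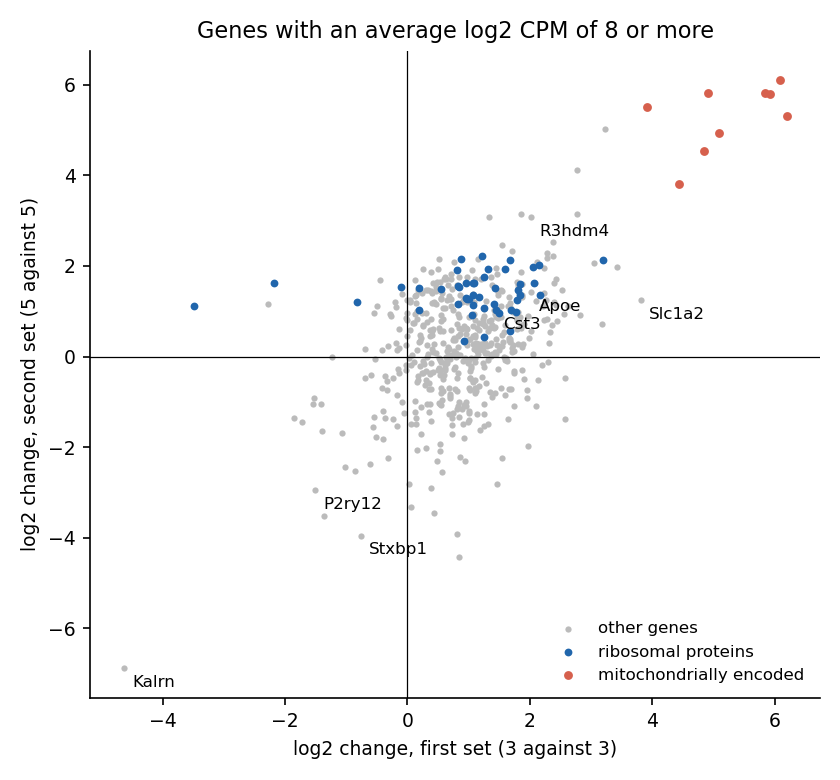
Log2 change between PeMP_TRAP and MG_TRAP in the first set (horizontal axis, 3 against 3) and the second set (vertical axis, 5 against 5) for genes with an average log2 CPM of at least 8. Mitochondrially encoded genes lie at the upper right in both sets, most ribosomal protein genes are positive in both, and Kalrn is far below 0 in both.

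In control mice the same comparison has a background reading, since the tag was not induced there. Between PeMP_TRAP and MG_TRAP of control mice (3 against 3), 6 of 14771 genes passed an adjusted p of 0.05 (0.0406%), 4 higher and 2 lower. The higher ones were mt-Cytb, mt-Nd1, mt-Co1 and mt-Nd4, at 5.24, 5.51, 4.46 and 5.57 on the log2 scale. At an unadjusted p of 0.05, 3068 genes passed, and DESeq2 called 1925. The lower ones were Kalrn at -4.77 (SE 0.98, adjusted p = 0.0439) and Ahsa1, a co-chaperone gene that was looked up after its values were seen, at -6.85 (SE 1.31, adjusted p = 0.0205). Ahsa1 differed by 0.58 (SE 0.70) in tamoxifen mice. P2ry12 differed by -0.36 in control mice, C1qa by 0.95 and Apoe by 0.92, none of which passed. Whether the difference between the immunoprecipitates depended on treatment was tested in the first set, where 0 of 14771 genes passed (0%, lowest adjusted p 0.123), 2124 passed an unadjusted p of 0.05 and DESeq2 called 922. Leaving out any 1 of the control replicates A, B or C took the 6 calls in control mice to 0, at 2 against 2 libraries.

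Genes higher in processes had short transcripts. Among protein-coding genes with an average log2 CPM of at least 8, the median transcript was 1284 bases long for genes called higher, 1855 for all genes and 3316 for the 11 called lower. The median coding sequence was 675, 768 and 1563 bases, and the median 3′ UTR 277, 569 and 1285 bases. Without ribosomal protein and mitochondrially encoded genes the median 3′ UTR was 359 bases for the higher genes and 634 for all. GC content differed little, with medians of 53.7%, 52.9% and 49.8%. Of the 498 genes called higher over all abundances, 399 were protein coding and 55 were processed pseudogenes, whose reads cannot be told apart from those of their parent genes where the sequences match.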

How the data were processed

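Per the labels' protocols, tissue was homogenised by hand, RNA was purified on RNeasy MinElute columns, and libraries were made with SMART-Seq v4 and NEBNext Ultra II. The submitters' processing notes name FastQC 0.11.7, Trimmomatic 0.38, Bowtie2 2.3.5, STAR 2.7.0d, HTSeq 0.9.1 and edgeR. The genome build, annotation and strand setting are not given in the sources used here. The authors deposited read counts per Ensembl gene for 44 libraries, in 2 sets listing 54146 and 55359 genes. The 50714 shared genes were used, and those left out held up to 0.795% of a library's reads. Symbols, coordinates and transcript lengths come from GENCODE M21 (GRCm38), start sequences from RefSeq (GRCm38.p6).

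Counts were filtered with filterByExpr (minimum count 10), scaled by TMM and tested with edgeR 4.0.16 in R 4.3.3 by the quasi-likelihood test, over the 32 libraries of tamoxifen mice with set as a covariate. The fit of control mice and of the treatment interaction used the first set alone (24 libraries). P-values were adjusted by Benjamini-Hochberg over all genes tested, at 0.05. Log2 CPM used a prior count of 2, so a count of 0 reads as -2.80. Alternatives used DESeq2 1.42.0, limma 3.58.1 (voom), RLE or total-count scaling, removal of mitochondrially encoded genes, and counts scaled down to molecule equivalents, the number of draws from the mean profile of the other libraries that gives the genes detected. The scaled-down counts were rounded, filtered and scaled by TMM as in the main fit. An average log2 CPM of at least 8 was added after seeing the data. The code was tested on simulated counts. Reads carry no molecular identifiers, so the floor of 3 counts, 0.0847 to 4.05 CPM in PeMP_TRAP and 0.109 to 0.963 CPM in MG_TRAP, covers counting error only.

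The named genes are the 8 largest increases and the 8 largest decreases with an adjusted p under 0.05, a mean log2 CPM of 4 or more, a symbol that is no predicted model, no mitochondrial origin, and the same direction in all 8 letters and in both sets, where a decrease also needs a count in at least 4 PeMP_TRAP libraries. To these were added up to 2 called members per list and direction with the lowest p, a fixed set of microglial genes and the mitochondrially encoded messages and ribosomal RNAs. The members and lists were chosen with earlier results of these data known. The authors' deposited table of comparisons was not used, and some named genes are not reported here.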

Additional observations from a re-analysis of the deposited data

Results flagged for a closer look

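In groups of 8 libraries, some named genes had a library whose distance from its nearest neighbour took an unusually large share of the group's range, which chance gives in about 1 in 20 groups. Letter D stood apart most for microglial genes. Its PeMP_TRAP library was highest for Apoe (15.28 log2 CPM), C1qa (14.29), C1qb (16) and C1qc (15.48) and lowest for Lars2 (9.31). The MG_TRAP library of D was lowest for Trbc2 (1.28), Gad2 (-1.81), Lars2 (6.89), Slc2a3 (-2.80), mt-Cytb (4.79) and mt-Nd5 (4.59). The PeMP_TRAP library of E stood apart for Ccl4 (4.98), Eef2 (9.55), Ermn (1.93), Igkc (1.23), Mn1 (5.68), Pdgfrb (-0.19) and Trbc2 (2.40), and the MG_TRAP library of E for Eef2 (8.44). Single PeMP_TRAP libraries stood apart for Klf2 (0.83, letter F), Ahsa1 (-2.80, G), Folr1 (6.50, H) and Hexa (4.38, I). Single MG_TRAP libraries did so for Cand1 (4.28) and Rack1 (10.00) in letter F, Ciita (0.69) and Mcoln1 (2.75) in G, and Cd79a (0.85), Klf2 (-2.80) and Mpo (1.39) in K.

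The difference between PeMP_TRAP and MG_TRAP depended on set for 2743 genes in edgeR's test of the interaction. Among the named genes, the second set minus the first set on the log2 scale was positive for Rpl10a (4.59) and Ftl1 (4.10). It was negative for Ccl4 (-8.33), Cpeb1 (-9.95), Eno2 (-4.84), Ermn (-6.76), Gad2 (-9.07), Magee1 (-5.66), Mcoln1 (-10.15), Miat (-5.36), Mn1 (-9.71), Slc1a2 (-2.37), Slc2a3 (-10.05), Sphkap (-5.68) and Trbc2 (-8.83). The number of distinct molecules also differed between the sets of PeMP_TRAP libraries, and its part in these differences was not tested.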

How the results depend on the processing

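The median log2 change of all genes fitted was -0.57 in the main fit and -1.10 with RLE factors. It was -1.30 with total counts, -0.69 without mitochondrially encoded genes and -1.13 with molecule equivalents. Against 498 genes higher, 140 were higher with the 16 libraries alone, 287 with RLE factors, 181 above an average log2 CPM of 8, 0 in the first set only, 137 with molecule equivalents and 195 with total counts. Against 3454 lower, there were 1223 with the 16 libraries alone, 11 above an average log2 CPM of 8, 0 in the first set only, 6587 with voom, 5476 without a filter and 5962 in the second set only. Leaving out 1 letter gave 331 (without H) to 612 higher and 2635 to 4519 lower. In control mice, against 6 genes, DESeq2 gave 1925, no filter 76 and total counts 195, and leaving out any of A to C gave 0. The treatment interaction went from 0 to 922 with DESeq2 and 73 without a filter, and the set interaction from 2743 to 547 with the 16 libraries alone and to between 1433 (without E) and 3270 (without G), with 1601 without F. On the 16 libraries alone, 29 of the 100 called named genes that could be fitted were no longer called, and 0 were reversed. The causes were not tested.

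With molecule equivalents the change was -0.53 for Actb, -0.10 for C1qb, -0.32 for C1qc, -0.01 for Cst3, -0.27 for Laptm5, -0.42 for Pkm, -0.13 for Sparc, -1.03 for Tmem119, -1.14 for Tmsb4x and -0.32 for Tpi1, all of the opposite sign and past the threshold for Tmem119 and Tmsb4x. Total counts reversed Actb (-0.01), voom Ciita (0.05) and Mpo (0.04), and the second set alone Rpl10a (1.60) and Tmem119 (-0.89). Folr1 rests on letter H, and leaving out 1 letter gave -5.10 (without H) to 7.31 (without I).

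The labels do not say that a replicate letter pairs libraries. The correlation of deviations between same-letter libraries was 0.118 for D, 0.106 for E, 0.063 for F and between -0.007 and 0.028 for G to K. D, E, F and K correlated best with their own letter and G to J with another, so pairing was not assumed. With the letter as a replicate block, 356 genes were higher, 3176 lower, 12 differed in control mice, 0 depended on treatment, and Folr1 changed by -1.10.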
